A study of Mus musculus with 6 samples.

Results

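Genes that move, store and sense iron were examined in liver RNA of mice lacking SIRT7 and of wild-type mice. The set holds 9 listed genes, chosen by name for their roles in hepatic iron handling: Hamp, Trf, Tfrc, Tfr2, Slc40a1, Fth1, Ftl1, Hfe and Slc11a2. They were chosen with earlier results of these data known. A gene was measured only through probe sets (groups of short array probes that report 1 transcript) annotated to that gene alone, and the brightest of them on average, over 6 arrays, stood for the gene. That left 7 of the 9 genes, out of 12393 genes measured in this way. All 7 passed the filter on dim genes, a mean log2 value of at least 4, which 8343 genes passed. Every probe set that names Trf, the plasma iron carrier transferrin (1 probe set), or Ftl1, the ferritin light chain (3 probe sets), also names other genes, so no value is given for either.

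The groups were 3 liver samples labelled SIRT7 knockout and 3 labelled wild type, each hybridised to its own 1-colour array. The labels do not say whether each sample came from a different animal, and each is called a liver here. SIRT7 is a nuclear NAD-dependent deacylase, and the study's title links it to the activity of MYC, a transcription factor for which Tfrc is a known direct target. The labels state that all samples had the same treatment conditions, and give no strain, age, sex, diet or iron status. Values are log2 expression values, so that a difference of 1 stands for a 2-fold ratio on this scale. Levels of different probe sets are not comparable with each other.

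The liver takes up iron from circulating transferrin, stores it in ferritin and releases it through ferroportin. Hepatocytes also make hepcidin, the hormone encoded by Hamp, which binds ferroportin and causes its degradation, and so lowers the release of iron into blood. HFE and transferrin receptor 2 at the hepatocyte surface are needed for normal hepcidin expression, which rises with iron through bone morphogenetic protein (BMP) and SMAD signals and with inflammation through IL6 and STAT3. Inside cells, iron regulatory proteins bind stem-loops in ferritin and Tfrc mRNAs when iron is scarce, which holds back ferritin translation and stabilises Tfrc mRNA.

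Upstream sequence is shown for Hamp and Tfrc, the genes with the smallest p toward lower and higher values among the measured members. Each is the 250 bases before a transcription start in the RefSeq annotation of build GRCm38.p6, written 5′ to 3′ on the strand of the gene. Capitals mark GGCGCC, the core of the BMP response element known from hepcidin promoters, and TTCNNNGAA, the form of a STAT binding site. Hamp lies on the minus strand at chr7:30944030-30944279, and Tfrc on the plus strand at chr16:32608646-32608895.
Hamp: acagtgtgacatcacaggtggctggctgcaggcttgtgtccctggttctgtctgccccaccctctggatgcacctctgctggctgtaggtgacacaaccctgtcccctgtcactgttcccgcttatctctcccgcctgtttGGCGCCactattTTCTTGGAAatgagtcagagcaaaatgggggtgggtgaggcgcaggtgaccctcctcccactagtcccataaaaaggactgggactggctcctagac
Tfrc: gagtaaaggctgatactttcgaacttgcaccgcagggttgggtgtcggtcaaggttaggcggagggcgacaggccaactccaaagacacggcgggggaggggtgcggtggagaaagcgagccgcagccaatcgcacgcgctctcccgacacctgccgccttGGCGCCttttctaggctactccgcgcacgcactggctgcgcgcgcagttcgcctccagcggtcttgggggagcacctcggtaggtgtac

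In Hamp the GGCGCC starts at base -109 from the transcription start, and TTCTTGGAA starts at base -97. In Tfrc the GGCGCC starts at -89 of the first of its 2 annotated starts. The search covered windows that also take in 50 bases after the start, 300 bases in all, and both motifs read the same on both strands. Windows were found for 5 of the 7 measured genes (Hamp, Tfrc, Tfr2, Hfe and Fth1), 9 windows in all. Of these, 2 held GGCGCC and 1 held TTCNNNGAA, against 11.9% and 8.3% of all 32851 promoter windows. CACGTG, the E-box that MYC and USF proteins bind, was in 0 of the 9 windows and in 7.15% of all windows. A match describes the letters in these windows, and no binding was measured.

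Sirt7 itself was at 2.38, 3.10 and 2.85 in the knockout livers and at 9.85, 9.80 and 9.57 in the wild-type livers, a difference of -6.96 (SE 0.23, limma adjusted p = 3.99e-06), so the libraries matched their labels. The labels do not say which part of Sirt7 was deleted. Hepatocyte markers were bright in every liver, with a mean log2 level over 6 markers of 12.37 to 12.79 in knockout and 12.45 to 12.74 in wild-type livers. Wild-type replicate 3 stood apart from the other wild-type livers in the mean level of proliferation markers, and its part in each result is given where it matters.

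None of the 7 measured iron genes passed the test across all genes (0 of 7, limma adjusted p under 0.05), against 0.024% of the 8343 genes tested. At an unadjusted p under 0.05 there was 1 member, Tfrc, against 6.46% of all genes. The ordinary 2-sample test gave 0 members after adjustment and 2 at an unadjusted p under 0.05, against 4.85% of all genes, while limma with array weights gave 3 (Hamp, Hfe and Tfrc), against 21% of all genes. In Tfrc every knockout liver was above every wild-type liver (1 of 7 members, against 4.27% of all genes), and in Hamp and Hfe every knockout liver was below every wild-type liver (2 of 7, against 5.48%). Together that is 3 of 7 members, against 9.74% of all genes. The members were chosen with earlier results of these data known, so this comparison cannot show that the set stands out. The other probe sets of these 3 genes overlapped between the groups. The median difference of the 7 genes was -0.065, beside -0.03 for all genes tested, with 3 members above 0 and 4 below, against 45.4% and 54.6% of all genes. On the brightest probe sets, 6 of the 7 genes had a within-group SD under 0.282, the median of all genes tested. The range was 0.10 for Hamp to 0.31 for Slc40a1. On other tested probe sets the SD was 0.302 for Tfr2, 0.395 for Tfrc, 0.487 for Slc40a1, 0.515 for Slc11a2 and 0.794 for Hfe. It was 0.234 on another Slc11a2 probe set, 0.237 for Fth1 and 0.264 for Hamp.

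**Figure D1:**
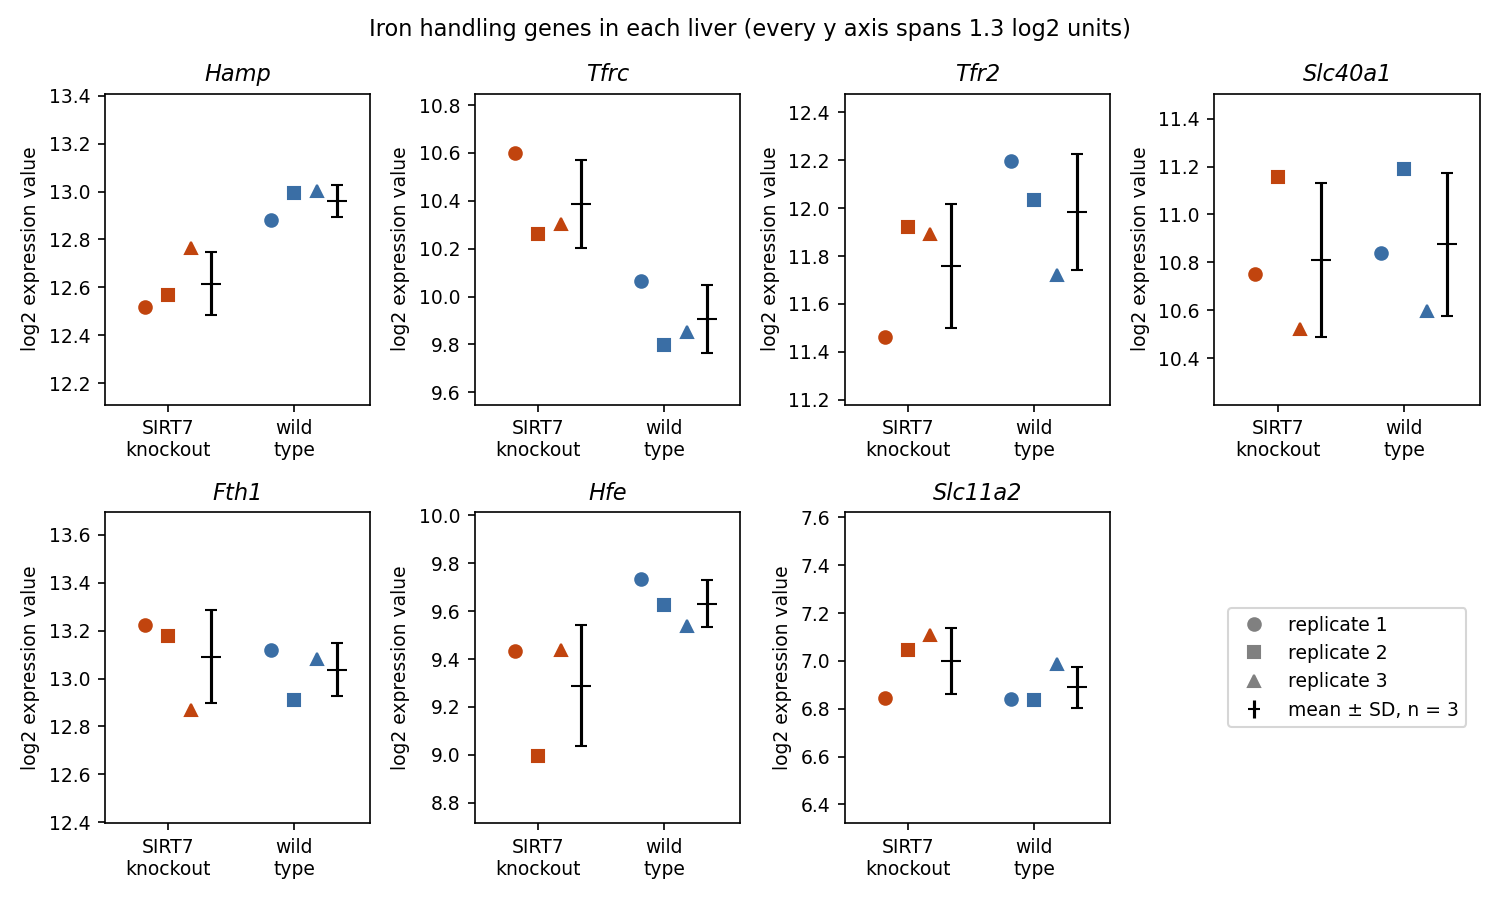
Log2 expression value of the 7 measured iron genes in each liver, SIRT7 knockout (red) left of wild type (blue), with symbols for the replicate and black bars for mean ± SD over 3 livers. The groups are apart in Hamp and Hfe (knockout lower) and in Tfrc (knockout higher) and overlap in Tfr2, Slc40a1, Fth1 and Slc11a2; no gene passed the test over all genes.

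Hamp encodes hepcidin, the hormone that limits iron release. It was at 12.52, 12.57 and 12.76 in the knockout livers and at 12.88, 13.00 and 13.00 in the wild-type livers. The highest knockout value, that of replicate 3, was under the lowest wild-type value. The group means were 12.62 ± 0.13 in knockout and 12.96 ± 0.07 in wild-type livers (SD, n = 3 each). The difference of -0.35 (SE 0.18, 95% interval -0.75 to 0.06) corresponds to 0.787 times the wild-type level and did not pass (limma adjusted p = 0.782). A second Hamp probe set gave 12.21, 11.81 and 12.47 in knockout and 12.45, 12.78 and 12.65 in wild-type livers. There the groups overlapped, since knockout replicate 3 was above wild-type replicate 1, and the difference was -0.46 (SE 0.23). In bulk liver, fewer cells that express a gene and less RNA per cell cannot be told apart. Hamp values also lay near the top of the array's range, where the highest value of any probe set was 13.97; whether this narrowed the difference was not tested.

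Mice carry Hamp2, a close copy of Hamp on the same chromosome, so the values of either can hold signal of the other and are uncertain. The bright Hamp2 probe set pointed the other way, at 12.31, 12.10 and 11.81 in knockout and at 11.06, 11.21 and 11.98 in wild-type livers. Its groups overlapped, because wild-type replicate 3 was above knockout replicate 3, and the difference was 0.65 (SE 0.28, limma adjusted p = 0.809 with each probe set tested on its own). The other Hamp2 probe set was dim, with a mean of 2.42 over the 6 livers.

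Hfe encodes an MHC class I-like membrane protein that binds transferrin receptor 1 and is mutated in hereditary hemochromatosis in humans. Hfe was at 9.43, 8.996 and 9.44 in the knockout livers and at 9.73, 9.63 and 9.54 in the wild-type livers. The groups did not overlap, but the gap between knockout replicate 3 and wild-type replicate 3 was narrow and knockout replicate 2 was well below both other knockout livers. The difference of -0.34 (SE 0.20, 95% interval -0.80 to 0.11) did not pass (limma adjusted p = 0.796), and without knockout replicate 2 it was -0.20. The second, dimmer Hfe probe set was at 6.96, 5.39 and 6.35 in knockout and at 8.10, 6.79 and 6.64 in wild-type livers. It differed by -0.94 (SE 0.47) with overlapping groups, since knockout replicate 1 was above wild-type replicates 2 and 3.

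Tfr2 encodes transferrin receptor 2, a hepatocyte sensor of iron-loaded transferrin, and its probe sets disagreed in the size of the difference. On the brighter one Tfr2 was at 11.46, 11.92 and 11.89 in knockout and at 12.20, 12.03 and 11.72 in wild-type livers. Wild-type replicate 3 was below knockout replicates 2 and 3, so the groups overlapped, and the difference was -0.23 (SE 0.22, 95% interval -0.72 to 0.27, limma adjusted p = 0.848). It was -0.08 without knockout replicate 1 and -0.12 without wild-type replicate 1. On the other probe set Tfr2 was at 10.39, 10.64 and 11.18 in knockout and at 11.35, 11.63 and 11.52 in wild-type livers. Here the groups were apart. The difference of -0.77 (SE 0.24, 95% interval -1.31 to -0.22), or 0.588 times the wild-type level, had an unadjusted p of 0.011 and a limma adjusted p of 0.785 among 13143 probe sets tested on their own. Of the 15 tested probe sets of the iron genes, 0 passed that test, against 0.0152% of all, and this Tfr2 probe set was the 1 with an unadjusted p under 0.05 toward lower values, against 2.94% of all. Groups were apart toward lower values in 3 of the 15, against 5.16% of all probe sets, and toward higher values in 1, against 4.13%.

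**Figure D2:**
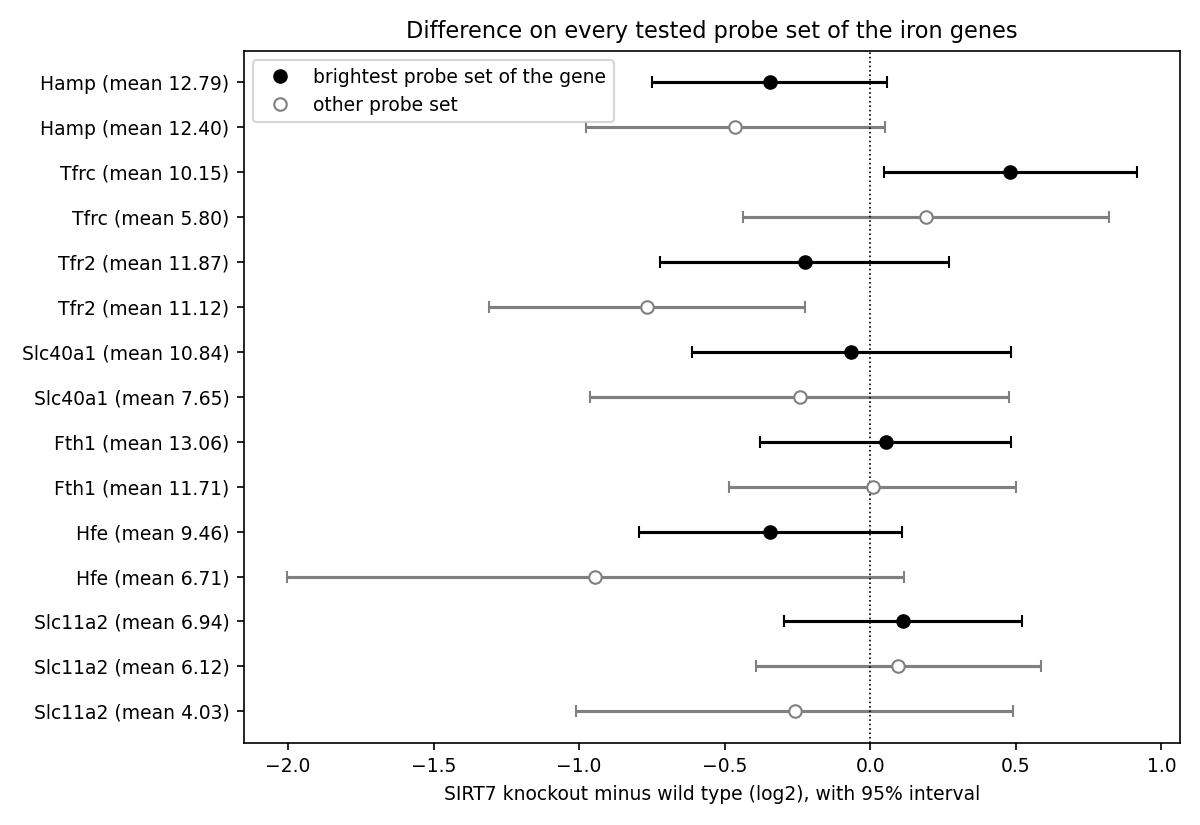
Difference between SIRT7 knockout and wild-type livers (log2, x axis) with its 95% interval for the 15 tested probe sets of the iron genes, labelled by gene and mean log2 value over 6 livers; filled points are the brightest probe set of a gene. Both probe sets of Hamp, Hfe and Tfr2 lie below 0 and both of Tfrc above it, while intervals exclude 0 only for the brighter Tfrc and the dimmer Tfr2 probe set, before adjustment.

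Tfrc encodes transferrin receptor 1, through which most cells, dividing ones above all, take up transferrin-bound iron. Tfrc was at 10.60, 10.26 and 10.30 in the knockout livers and at 10.07, 9.80 and 9.85 in the wild-type livers. The lowest knockout value was above the highest wild-type value, and knockout replicate 1 was the highest of all. The group means were 10.39 ± 0.18 in knockout and 9.91 ± 0.14 in wild-type livers (SD, n = 3 each). The difference of 0.48 (SE 0.19, 95% interval 0.05 to 0.92), a ratio of 1.4, had an unadjusted p of 0.034 and did not pass over all genes (limma adjusted p = 0.769). A dimmer Tfrc probe set was at 6.44, 5.88 and 5.37 in knockout and at 5.57, 5.68 and 5.88 in wild-type livers. There the knockout livers enclosed the whole wild-type range, and the difference was 0.19 (SE 0.28). Another probe set had a mean of 3.61, under the filter, and was not tested; it gave 3.71 ± 0.11 in knockout and 3.52 ± 0.41 in wild-type livers (SD, n = 3 each). With the mean of the 3 probe sets in place of the brightest the Tfrc difference was 0.29.

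Slc11a2 encodes DMT1, which carries ferrous iron out of endosomes after transferrin uptake. Slc11a2 was at 6.85, 7.05 and 7.11 in knockout and at 6.84, 6.84 and 6.99 in wild-type livers. The groups overlapped at wild-type replicate 3, and the difference was 0.11 (SE 0.18, 95% interval -0.30 to 0.52, limma adjusted p = 0.902). Its other probe sets differed by 0.10 (SE 0.22) and -0.26 (SE 0.33), so that the sign depended on the probe set. The probe set below 0 was the dimmest, with a mean of 4.03, just over the filter of 4. The mean of all 3 gave -0.02.

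Fth1 encodes the heavy chain of ferritin, the subunit that oxidises iron for storage, and is known to be repressed by MYC in cultured cells. Fth1 was at 13.22, 13.18 and 12.87 in knockout and at 13.12, 12.91 and 13.08 in wild-type livers. The groups overlapped fully, with a difference of 0.05 (SE 0.19, 95% interval -0.38 to 0.48, limma adjusted p = 0.967). The second probe set differed by 0.01 (SE 0.22). The sign turned without knockout replicate 1 (-0.01) and without wild-type replicate 2 (-0.01). Ferritin heavy chain has processed pseudogenes and these values also lay near the top of the range, so Fth1 values are uncertain.

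Slc40a1 encodes ferroportin, the iron exporter that hepcidin removes from the cell surface. Slc40a1 was at 10.75, 11.16 and 10.52 in knockout and at 10.84, 11.19 and 10.60 in wild-type livers. The ranges of the groups all but coincided. The difference was -0.065 (SE 0.24, 95% interval -0.61 to 0.48, limma adjusted p = 0.969), and it turned to 0.08 without knockout replicate 3 and to 0.09 without wild-type replicate 2. Its second probe set differed by -0.24 (SE 0.32).

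The genes that set hepcidin output through BMP and SMAD signals lay on both sides of 0. Of 24 listed genes 20 were tested, of which 12 were above and 8 below 0, with a median difference of 0.03 beside -0.03 for all genes. The median was -0.03 without knockout replicate 1, -0.002 without knockout replicate 2 and -0.05 without wild-type replicate 2, and averaging probe sets gave -0.008. Limma called 0 of them, and 2 had an unadjusted p under 0.05, both lower, against 3.42% of all genes in that direction. These were the BMP type I receptor gene Acvr1 (6.86, 7.18 and 6.62 in knockout, 7.82, 7.68 and 7.06 in wild-type livers; -0.63, SE 0.26) and Fgl1, which encodes a secreted liver protein (-0.51, SE 0.22). In Fgl1 every knockout liver was below every wild-type liver, at 11.64, 11.69 and 11.10 in knockout and 12.07, 11.84 and 12.05 in wild-type livers, and the difference was -0.325 without knockout replicate 3. Averaging its probe sets gave Acvr1 a difference of -0.338. The signal transducer gene Smad5 differed by 0.59 (SE 0.39), but by 0.226 when its probe sets were averaged. Leaving out 1 liver gave Smad5 values of 0.297 (knockout replicate 1 left out) to 0.929 (knockout replicate 3 left out), with 0.31 and 0.917 when wild-type replicates 2 and 3 were left out. The BMP ligand gene Bmp6 and the BMP target genes Id1, Smad7 and Atoh8 were picked for their role with their values already known. Bmp6 differed by 0.21 (SE 0.20), Id1 by 0.38 (SE 0.40), Smad7 by -0.17 (SE 0.30) and Atoh8 by 0.04 (SE 0.31), all with overlapping groups. On the same list Id2 differed by 0.13 (SE 0.28), Id3 by -0.56 (SE 0.47) and Smad6 by -0.33 (SE 0.22), also with overlapping groups. Id1 and Smad6 were dim, with wild-type means of 4.52 and 4.54.

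Genes of the IL6 and STAT3 arm and of hepcidin's liver transcription factors lay mostly below 0. Of 12 listed genes 11 were tested, 2 above and 9 below 0, against 45.4% and 54.6% of all genes. The median was -0.18 beside -0.03 for all genes. Limma called 0, against 0.024% of all genes, and 0 had an unadjusted p under 0.05, against 6.46%. Il6st, the signalling subunit of the IL6 receptor, was at 9.71, 9.92 and 9.80 in knockout and at 9.99, 10.33 and 10.24 in wild-type livers, with no overlap (-0.37, SE 0.19, limma adjusted p = 0.775). Averaging the probe sets of Il6st gave -0.052. Socs3, a feedback inhibitor that STAT3 induces, differed by -0.58 (SE 0.30) with overlap at wild-type replicate 3. The Socs3 difference was -0.305 without knockout replicate 1 and -0.378 when wild-type replicate 2 was left out, and averaging its probe sets gave -0.345. Cebpa, a hepatocyte transcription factor gene that activates Hamp, differed by -0.32 (SE 0.20) with no overlap, at 11.27, 10.84 and 11.27 in knockout and 11.33, 11.41 and 11.60 in wild-type livers; without knockout replicate 2 it was -0.179. The list's median was -0.03 with each probe set tested on its own and -0.05 with the mean of the probe sets of each gene.

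Among 9 tested genes of intracellular iron sensing and storage, 6 were above and 3 below 0, against 45.4% and 54.6% of all genes. The median was 0.09, which was -0.05 without knockout replicate 1 and -0.017 without knockout replicate 2. Limma called 0, against 0.024% of all genes, and 0 had an unadjusted p under 0.05, against 6.46%. The smallest p belonged to the iron chaperone gene Pcbp1 (-0.24, SE 0.21), to Nfe2l2, which encodes the antioxidant regulator NRF2 (0.23, SE 0.22), and to the hypoxia factor gene Epas1 (-0.31, SE 0.32). With 1 liver left out these ranged from -0.424 to -0.117 for Pcbp1 (without knockout replicates 3 and 1), from 0.069 to 0.351 for Nfe2l2 (without wild-type replicate 2 and knockout replicate 3) and from -0.634 to -0.129 for Epas1 (without knockout replicates 3 and 1). The iron regulatory protein genes, chosen for their role with values known, overlapped between the groups. Aco1 averaged 11.53 in knockout and 11.50 in wild-type livers, and Ireb2 averaged 10.46 in knockout and 10.47 in wild-type livers. Their differences were 0.02 (SE 0.20) for Aco1 and -0.01 (SE 0.21) for Ireb2, with 95% intervals of -0.43 to 0.48 and -0.49 to 0.46.

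Partners of iron uptake, reduction and export had 13 tested genes, 4 above and 9 below 0, against 45.4% and 54.6% of all genes. Their median was -0.21. Limma called 0, against 0.024% of all genes, and 0 had an unadjusted p under 0.05, against 6.46%. Scara5, a scavenger receptor that can take up ferritin, was at 7.63, 7.005 and 8.65 in knockout and at 8.83, 9.77 and 8.01 in wild-type livers. Its groups overlapped and it differed by -1.11 (SE 0.51, limma adjusted p = 0.773). Leaving out wild-type replicate 2 gave Scara5 a difference of -0.66, leaving out knockout replicate 2 gave -0.732, and averaging its probe sets gave -0.628. The hemoglobin scavenger haptoglobin (Hp) differed by -0.34 (SE 0.20) and the endosomal ferrireductase gene Steap3 by -0.37 (SE 0.28), which became -0.091 when knockout replicate 1 was left out, -0.578 when knockout replicate 3 was, and -0.232 when wild-type replicate 1 was. Without knockout replicate 1 the list's median was -0.11, and without knockout replicate 3 it was -0.30.

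The heme list had 16 tested genes, 9 above and 7 below 0, with a median of 0.05, which was -0.09 without knockout replicate 3 or wild-type replicate 1. Limma called 0, and 1 had an unadjusted p under 0.05, higher, against 3.04% of all genes in that direction. That gene was Blvrb, a biliverdin reductase, at 10.26, 10.28 and 10.37 in knockout and at 8.61, 9.58 and 10.12 in wild-type livers (0.87, SE 0.35). The knockout livers were close to each other and above all wild-type livers, whose own spread was wide, with replicate 1 lowest. Tspo, an outer mitochondrial membrane protein that binds porphyrins, differed by 0.49 (SE 0.23) without overlap, and the heme transporter gene Slc48a1 by 0.78 (SE 0.36) with overlap. Wild-type replicate 1 was the lowest liver in all 3 genes, and without it the differences were 0.453 for Blvrb, 0.293 for Tspo and 0.431 for Slc48a1. Averaging the probe sets of Slc48a1 gave 0.335.

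Mitochondrial iron and iron-sulfur cluster genes had 13 tested members, 8 above and 5 below 0, with a median of 0.01, which was -0.04 without knockout replicate 3 and -0.03 without wild-type replicate 1. Limma called 0, and 1 had an unadjusted p under 0.05, higher, against 3.04% of all genes in that direction. This was Nfu1, an iron-sulfur cluster carrier gene, at 11.91, 11.40 and 11.48 in knockout and at 10.87, 11.01 and 11.32 in wild-type livers, with no overlap (0.53, SE 0.22, limma adjusted p = 0.772). Averaging the probe sets of Nfu1 gave 0.234 (limma adjusted p = 0.821). The ferredoxin gene Fdx1 differed by -0.52 (SE 0.29), which was -0.298 without knockout replicate 1 and -0.815 without knockout replicate 3. Nfs1, the cysteine desulfurase that supplies sulfur to the clusters, differed by -0.32 (SE 0.19) without overlap, by -0.186 when wild-type replicate 2 was left out and by -0.092 when its probe sets were averaged.

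**Figure D3:**
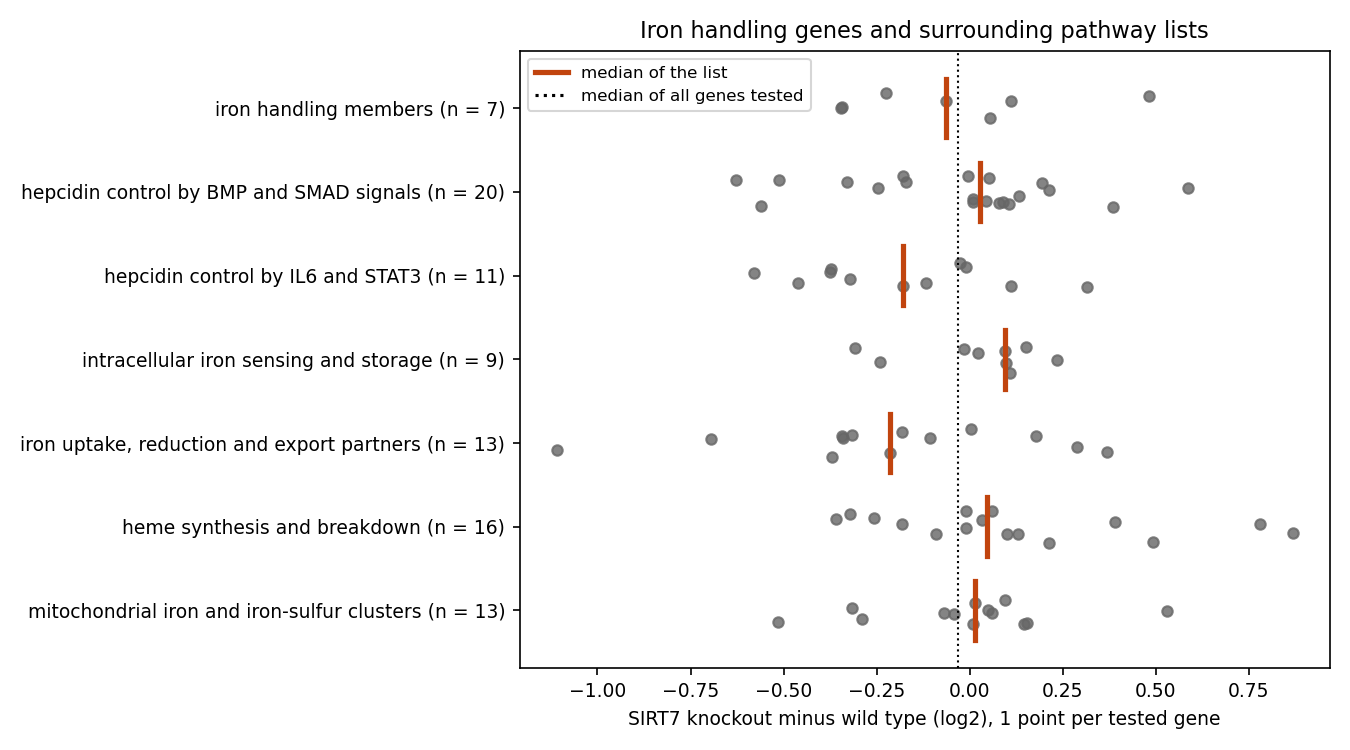
Difference between SIRT7 knockout and wild-type livers (log2, x axis) for each tested gene of the iron handling set and of 6 lists around it, with red lines at the list medians and a dotted line at the median of all genes (-0.03). The medians lie between -0.21 for uptake, reduction and export partners and 0.09 for sensing and storage, and every list spans both sides of 0.

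Marker lists were set beside the iron genes, because Tfrc is high in dividing and erythroid cells and Hamp responds to inflammation. All 10 tested proliferation markers were above 0 (45.4% of all genes were), with 9 higher at an unadjusted p under 0.05, against 3.04% of all genes, and 6 higher without overlap between the groups, against 4.27%. Limma called 0 of them after adjustment. Among them were Rrm2, a ribonucleotide reductase subunit (0.93, SE 0.21), and the replicative helicase gene Mcm6 (1.65, SE 0.41). Their mean level was 7.96 to 8.09 in knockout livers, against 6.23, 6.19 and 7.58 in wild-type replicates 1 to 3. Wild-type replicate 3 was near the knockout livers in this mean, though not in every marker. In Birc5 it was at 10.071, within the knockout range of 9.768 to 10.576. In Rrm2 it was at 9.889, between wild-type replicates 1 (9.795) and 2 (10.003), and in Mcm6 at 7.205, beside 7.153 in wild-type replicate 2. Its Tfrc value of 9.85 also lay between those of both other wild-type livers. The Tfrc difference without that liver was 0.45 (limma adjusted p = 0.473). The part of proliferation in the Tfrc difference was not tested.

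Of 13 erythroid markers 8 were on the array and 5 of these were under the filter, the dimmest with a mean of 2.27. The 3 tested ones did not share a direction: Slc4a1, the red cell anion exchanger, differed by 1.32 (SE 0.38), Klf1, an erythroid transcription factor gene, by -0.94 (SE 0.46; -0.555 without wild-type replicate 1 and -0.584 without knockout replicate 1) and Alas2, the erythroid heme synthesis enzyme, by -0.14 (SE 0.26). Their mean level was 6.71 to 7.62 in knockout and 6.97 to 7.45 in wild-type livers. Of 11 tested Kupffer cell and macrophage markers, cells that recycle iron through ferroportin, 9 were above 0, against 45.4% of all genes (median 0.16), among them C1qa (1.05, SE 0.35) and Cd68 (0.50, SE 0.20). C1qb differed by 0.08 (SE 0.22) and C1qc by 0.305 (SE 0.20). The 2 below 0 were Csf1r (-0.63, SE 0.32) and Clec4f (-0.15, SE 0.31). The mean level of the 11 markers was 8.76 to 9.15 in knockout and 8.66 to 8.78 in wild-type livers, and was highest in knockout replicate 1. Sinusoidal endothelial markers, from the cells that make Bmp6, were at 7.47 to 7.81 in knockout and 7.47 to 7.67 in wild-type livers over 9 genes. Of these Oit3 differed by 0.33 (SE 0.21; 0.164 without knockout replicate 1) and Tek by -0.27 (SE 0.17), each without overlap.

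Acute phase genes had 13 of 16 tested members below 0, against 54.6% of all genes (median -0.22), with 3 lower at an unadjusted p under 0.05, against 3.42% of all genes, and 0 called by limma after adjustment. The smallest p belonged to Saa1 (-1.04, SE 0.30) and Saa2 (-1.44, SE 0.45), serum amyloid genes similar enough that their probe sets can share signal. Without wild-type replicate 2 they differed by -0.863 and -1.03, and without knockout replicate 2 by -0.759 and -1.143. The mean level of the 16 genes was 11.08, 10.86 and 11.06 in knockout replicates 1 to 3 and 11.12, 11.67 and 11.20 in wild-type replicates 1 to 3. The groups were thus narrowly apart in this mean, and apart in Hamp. Of the 16 genes 2 were lower without overlap on their own, against 5.48% of all genes. The mean of the uptake, reduction and export list was narrowly apart too, at 9.36 to 9.51 in knockout and 9.52 to 9.85 in wild-type livers. Its highest value was that of wild-type replicate 2, where Lcn2, a gene of that list, was at 10.62, against 7.93 to 8.43 in the other livers. Wild-type replicate 1 was close to the knockout livers in the acute phase mean and above them in Hamp. Of 6 tested hepatocyte markers 3 were above and 3 below 0 (median -0.08), among them Alb (-0.23, SE 0.23) and Apoa1 (-0.24, SE 0.26). Knockout replicate 3 was the highest of all livers in Alb (13.10) and Apoa1 (13.97), while its Hamp value was below every wild-type liver. Ttr and Apoa2 were also highest in that liver, Tat was not, and Cps1 was lowest in that liver (12.03). Without that liver the differences were -0.452 for Alb and -0.53 for Apoa1, and without knockout replicate 1 they were -0.107 and -0.139. The part of these lists in the Hamp difference was not tested.

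**Figure D4:**
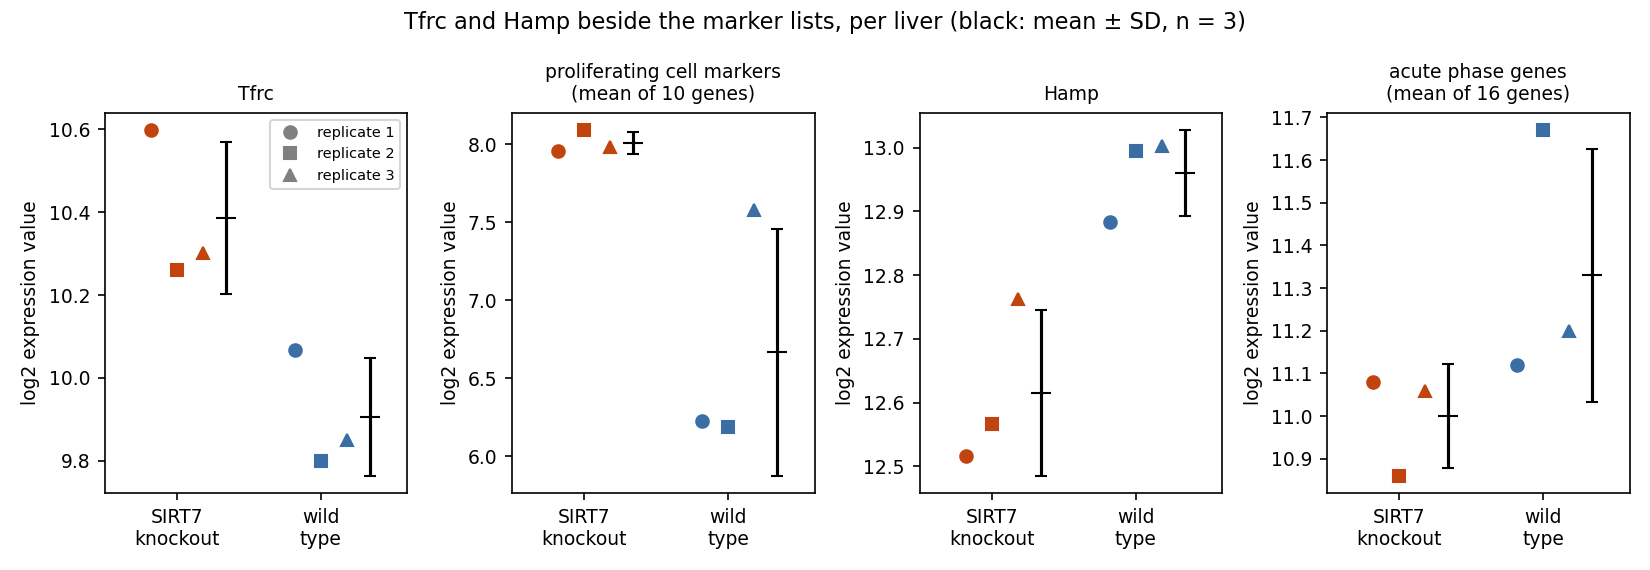
Log2 expression value per liver of Tfrc, of the mean of 10 proliferation markers, of Hamp and of the mean of 16 acute phase genes, SIRT7 knockout (red) left of wild type (blue), with mean ± SD over 3 livers in black; each y axis has its own range. Wild-type replicate 3 (triangle) is at 7.58 in the mean of the proliferation markers, near the knockout livers at 7.96 to 8.09, though not in every marker. It is at 9.85 in Tfrc, among the wild-type livers.

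Profiles over the 6 livers, each centred on its own mean, were compared with those of Hamp and Tfrc by their root mean square difference on the log2 scale. Nearest to Hamp were Ppm1b, a protein phosphatase gene (0.04), Zfp623, a zinc finger gene (0.04), and Tial1, an RNA-binding protein gene (0.05), against a median of 0.30 over the other 8342 tested genes. Nearest to Tfrc were Prim2, a subunit of the DNA primase (0.04), the retinol dehydrogenase gene Rdh11 (0.06) and Dgcr6 (0.08), against a median of 0.39. Prim2 was at 7.22, 6.89 and 7.01 in knockout and at 6.66, 6.47 and 6.45 in wild-type livers. None of these 6 genes passed the test over all genes. Averaging probe sets gave Ppm1b a difference of 0.033, against -0.342 on its brightest probe set, and Dgcr6 one of 0.297, against 0.451. The nearest of 8342 genes lie below the median by selection, so the distance to the median is no measure of likeness. These values describe which genes were nearest and were not tested.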

How the data were processed

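RNA of 3 liver samples labelled SIRT7 knockout and 3 labelled wild type was measured on 1-colour Affymetrix arrays; samples were grouped by their titles and the Sirt7 allele. The authors deposited log2 values per probe set, and per the submitters' processing notes R 2.11.1 and GCRMA 2.20.0 were used; the log2 scale was read from the range of 0.841 to 13.969, and the settings of GCRMA are not stated in the labels. GCRMA models background from probe sequence, so dim values have no detection call and small differences among them are not proportional to RNA. Array medians were 5.69 to 5.77, and 0 pairs of arrays were identical. Precision is limited by the number of arrays.

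Of 22626 probe sets, 20380 had 1 gene symbol in the platform annotation, 691 several and 1555 none or no entry; 20351 of the first had identifiers in the RefSeq table of GRCm38.p6, and 0 symbols differed. Each gene was represented by its brightest probe set, and genes with a mean under 4 were left out. Knockout was compared with wild type by limma 3.58.1 in R 4.3.3 (lmFit, eBayes, 2-sided, no replicate block) over 8343 genes, with a call at a Benjamini-Hochberg adjusted p under 0.05. Residual degrees of freedom were 4 and prior degrees of freedom 4.6. SE and 95% intervals are limma's moderated ones. Other probe sets were tested in 1 fit of all 13143 probe sets with a mean of at least 4. The procedure was checked on simulated data.

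Nothing in the labels says that each sample is a different animal, so the p-values reflect only how these samples vary, which may be technical. Members and lists were chosen with earlier results of these data known. The 12 lists hold 171 entries, 148 on the array, and are described by counts and medians only. Named genes were all members, the 3 tested genes with the smallest p of each pathway list, 2 of each marker list, the 3 nearest profiles to Hamp and Tfrc, and Sirt7; other names were chosen after their values were seen. Alternatives changed the filter (none, or a mean of 5), the use of probe sets, the normalization, array weights, the variance model and the replicate block, or left out each liver.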

Additional observations from a re-analysis of the deposited data

How the results depend on the processing

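Over 16 alternatives, Hamp (-0.42 to -0.28), Hfe (-0.64 to -0.20) and Tfr2 (-0.50 to -0.08) stayed below 0 and Tfrc (0.29 to 0.56) above it. The number of iron genes called was 0 in 15 alternatives and 3 (Hamp, Hfe and Tfrc, adjusted p = 0.0402, 0.0243 and 0.0486) with limma's array weights, under which 1748 of 8343 genes (21%) passed; the weights ran from 0.31 for knockout replicate 3 to 6.12 for knockout replicate 2, and the cause was not tested. Over all genes the 2 calls became 1 with the mean of probe sets, 0 with the ordinary 2-sample test (405, or 4.85%, at an unadjusted p under 0.05; Sirt7 at adjusted p = 0.0592), and 1 (without knockout replicate 2 or 3) to 38 (without wild-type replicate 3) when a liver was left out. Signs turned for Fth1 without knockout replicate 1 (-0.013) or wild-type replicate 2 (-0.009; with 1 liver left out -0.013 to 0.165), for Slc40a1 without knockout replicate 3 (0.08) or wild-type replicate 2 (0.093; with 1 liver left out -0.238 to 0.093) and with array weights (0.059), and for Slc11a2 (-0.018) and Ppm1b (0.033) with the mean of probe sets. Of 96 list medians under alternatives, 87 moved by less than the spread between livers. With array weights the medians were -0.30 (IL6 and STAT3), 0.22 (sensing and storage) and -0.13 (mitochondrial), and the IL6 and STAT3 median was -0.028 with each probe set and -0.052 with the mean of probe sets. With 1 liver left out, the medians ranged from -0.29 to -0.094 (IL6 and STAT3), -0.05 to 0.159 (sensing and storage), -0.30 to -0.11 (uptake, reduction and export), -0.036 to 0.10 (mitochondrial), -0.091 to 0.22 (heme) and -0.048 to 0.065 (BMP and SMAD). Sirt7 passed in 15 of 16 alternatives. Of the 36 other named genes outside the iron set, 21 passed with array weights and 0 with any other alternative.

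The labels do not say whether equal replicate numbers pair the livers. Same-numbered deviations from the group means correlated at -0.089, -0.091 and -0.194 over tested genes, and differently numbered ones at -0.251 to 0.315. With 3 livers per group these values cannot decide whether the numbers mark pairs. With the replicate block 2 genes and 0 iron genes were called, and Tfrc had an adjusted p of 0.878. Arrays carry no depth. The 95% intervals of the 7 iron genes, which are not adjusted, reach 0.40 to 0.55 log2 units to either side, and smaller differences could not be resolved. Larger differences also failed after adjustment, such as -0.77 on the dimmer Tfr2 probe set and 1.65 in Mcm6. The intervals thus do not give the smallest difference that the adjusted test could find.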
